A study of Rattus norvegicus with 25 samples.

Results

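The genes described here were 10 genes of corticosteroid signaling in the rat brain. They comprise the glucocorticoid receptor gene Nr3c1 and the mineralocorticoid receptor gene Nr3c2, the receptor-binding immunophilin genes Fkbp5 and Fkbp4, the steroid-activating enzyme gene Hsd11b1, and the glucocorticoid-induced genes Sgk1, Tsc22d3, Zbtb16, Ddit4 and Errfi1. Members were taken by name, as every row of either deposited table whose gene name equalled 1 of these 10 regardless of case. All 10 were found among the 25360 gene names of each table. All 10 also passed the filter on low counts in both regions, where 14953 genes were tested in the basolateral amygdala (BLA) and 13850 in the dentate gyrus (DG).

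Corticosterone, the main glucocorticoid of the rat, acts in neurons through a pair of nuclear receptors. The mineralocorticoid receptor binds it with high affinity and is known for strong expression in the hippocampus, whereas the glucocorticoid receptor binds it with lower affinity and is largely engaged when hormone levels climb, as during stress. Both wait in the cytoplasm in complexes with heat shock proteins and immunophilins, and, once bound by hormone, move to the nucleus and switch on genes such as Fkbp5, Sgk1 and Tsc22d3. The product of Fkbp5 in turn lowers the hormone sensitivity of the receptor, which closes a feedback loop.

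The animals were adult male Sprague-Dawley rats of WT genotype. Stress-exposed rats had been immobilized once for 3 h with predator scent (fox urine), and controls had remained in the colony with a change of cage. Tissue was taken on day 9 after stress, when all rats had been through a battery of avoidance and startle tests, so that every group shares the testing. Stress-exposed animals had been housed apart from the controls for the first nights after stress, and females were not studied. Stress-exposed animals were sequenced from the extremes of the composite anxiety-like behavior score, as stress-low and stress-high groups. Each control library was labeled as low or high in score, and controls of both labels were pooled in the control group. Libraries were made from poly-A RNA of several tissue punches of the left hemisphere per animal. The BLA gave 13 libraries (7 control, 3 stress-low, 3 stress-high) and the DG gave 12 (6, 3 and 3). The design asks how exposed animals differ from controls, and how stress-low and stress-high animals differ from each other. Animals 7, 19 and 20 formed the stress-high group in both regions. The stress-low group held animals 22 and 34 in both regions, joined by animal 30 in the BLA and by animal 33 in the DG. All stress-high animals carried numbers up to 20 and all stress-low animals numbers above 20, so the order of numbering and the behavior of exposed animals cannot be told apart. Within a region all comparisons with controls share the same control libraries. In bulk tissue, fewer cells of a type and less RNA per cell cannot be told apart.

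Total expected counts (the estimated number of reads assigned to genes) lay between 11656439 and 22801247 per library. The members had between 146 (Errfi1) and 4014 (Fkbp4) expected counts in each library of the fits. A single control library per region stood apart on the first principal component, that of animal 2 in the BLA (44.5, against -16.3 to 12.8 in the others) and that of animal 35 in the DG (53.9, against -13.3 to 2.13), and both were left out of the fits as the study left out a control library per region. That gave 12 BLA and 11 DG libraries. The paper reports that its excluded DG control had low RNA quality and was extracted again. It proposes that this harmed the RNA or brought in contamination. Whether that control was animal 35 is not stated. The BLA library of animal 35 carried conflicting labels, since its treatment field gave the immobilization stress and its library name gave control. It was taken as a control by its library name, as the DG library of that animal was labeled control. Of the 5 granule cell markers, 4 were higher in the DG and Calb1 was not, at 134 TPM in the BLA and 106 TPM in the DG. TPM counts the transcripts of a gene per fixed total of a library, corrected for gene length. C1ql2 averaged 344 TPM in the DG and 2.78 TPM in the BLA, and the summed BLA marker list lay between 362 and 481 TPM in the BLA and between 137 and 177 TPM in the DG, although of its 5 genes Rspo2 was higher in the DG (18.6 against 12.0 TPM) and Cdh9 was near equal (50.2 against 52.1 TPM). The choroid plexus marker Ttr was at 0 in every BLA library and averaged 0.0382 TPM in the DG. Summed striatal and central amygdala markers reached 222 and 236 TPM in the BLA libraries of animals 30 (stress-low) and 35 (control), against 76.8 to 118 TPM in the other 10.

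Promoter sequences are shown for Fkbp5, Tsc22d3 and Ddit4, which are among the members nearest to a group difference below, so that the letters near their start sites can be seen. For Tsc22d3, which has 3 start sites in the table, the one that holds a match to the spaced form of the response element is shown. RefSeq (build GRCr8) held 12 promoters of 7 members, each with 250 bases before and 50 bases after a start site, and none for Nr3c2, Hsd11b1 and Zbtb16. Each was searched on both strands for the core of the glucocorticoid response element (AGAACA or TGTTCT), for the looser spaced form ACANNNTGT, for a TATA box (TATAAA or TTTATA) and for a GC box (GGGCGG or CCGCCC). Capitals mark any match.
Fkbp5 (chr20:6543506-6543805, minus strand): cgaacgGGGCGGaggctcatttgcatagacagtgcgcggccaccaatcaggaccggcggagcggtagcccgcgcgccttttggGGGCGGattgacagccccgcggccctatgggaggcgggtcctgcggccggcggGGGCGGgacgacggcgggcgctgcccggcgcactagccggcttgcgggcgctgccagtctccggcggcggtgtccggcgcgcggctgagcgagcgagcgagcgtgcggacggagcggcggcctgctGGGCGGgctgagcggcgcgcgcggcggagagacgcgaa
Tsc22d3 (chrX:109065381-109065680, minus strand): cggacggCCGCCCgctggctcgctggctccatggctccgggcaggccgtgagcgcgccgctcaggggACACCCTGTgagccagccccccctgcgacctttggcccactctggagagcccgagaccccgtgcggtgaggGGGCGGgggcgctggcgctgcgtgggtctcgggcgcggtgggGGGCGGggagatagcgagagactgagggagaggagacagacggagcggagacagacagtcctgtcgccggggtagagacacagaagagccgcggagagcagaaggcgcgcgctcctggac
Ddit4 (chr20:28436988-28437287, minus strand): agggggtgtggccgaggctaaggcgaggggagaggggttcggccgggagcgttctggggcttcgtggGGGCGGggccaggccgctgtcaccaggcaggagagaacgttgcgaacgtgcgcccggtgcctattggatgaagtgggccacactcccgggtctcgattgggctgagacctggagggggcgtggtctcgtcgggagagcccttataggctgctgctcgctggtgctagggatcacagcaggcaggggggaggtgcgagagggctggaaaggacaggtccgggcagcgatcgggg
None of the 12 promoters held AGAACA or TGTTCT, letters that occurred in 20.7% of all 33469 promoters of this length. The spaced form occurred in 1 of the 12, the Tsc22d3 promoter shown, and in 6.86% of all promoters. GC boxes were present in the 3 sequences shown, 4 in Fkbp5, 3 in Tsc22d3 and 1 in Ddit4, and in 33.1% of all promoters. A TATA box occurred in 14.2% of all promoters and in none of the 3 shown. Among the promoters not shown, TATAAA was present in Sgk1, in Errfi1 and at another start site of Tsc22d3. GC boxes were also present in promoters of Sgk1, Fkbp4, Errfi1 and Nr3c1. A match is a run of letters and not a measured binding site, and the windows leave out introns and distal elements.

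TPM is corrected for length, so genes can be ordered by it within a library. In the BLA the order of mean TPM over 12 libraries was Fkbp4 (89.5), Nr3c1 (53.4), Hsd11b1 (40.3), Tsc22d3 (35.8), Ddit4 (30.7), Fkbp5 (19.5), Sgk1 (18.1), Errfi1 (12.3), Nr3c2 (10.2) and Zbtb16 (9.55). Neighbors in this order that changed places in some libraries were Hsd11b1 and Tsc22d3 (the former higher in 7 of 12 libraries), Tsc22d3 and Ddit4 (10 of 12), Fkbp5 and Sgk1 (8 of 12) and Nr3c2 and Zbtb16 (7 of 12). The ranges of Nr3c1 and Hsd11b1 and of Errfi1 and Nr3c2 also overlapped, although the former of each pair was higher in all 12 libraries. In the DG the order over 11 libraries was Fkbp4 (120), Nr3c2 (72.4), Ddit4 (63.3), Nr3c1 (52.4), Fkbp5 (44.7), Sgk1 (43.8), Hsd11b1 (42.8), Tsc22d3 (37.2), Zbtb16 (28.9) and Errfi1 (19.2). There the places of Fkbp5, Sgk1 and Hsd11b1 were not separated, since Fkbp5 was above Sgk1 in 5 of 11 libraries and Sgk1 above Hsd11b1 in 6 of 11. Nr3c2 had the largest difference in place between the regions, with rank 9 in the BLA and rank 2 in the DG. The tables of the regions were made with different read settings (length minus effective length was 50 bases in the BLA and 260.8 to 274.3 bases in the DG), so levels of the regions stand side by side here and the difference was not tested.

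The groups of both receptor genes overlapped in all comparisons of both regions, and no comparison passed the test. In the BLA, Nr3c1 lay between 46.3 and 57.5 TPM in the 6 controls (median 53.0), at 52.1, 61.2 and 47.1 TPM in the stress-low animals 22, 30 and 34, and at 46.8, 54.1 and 62.1 TPM in the stress-high animals 7, 19 and 20. In the DG, Nr3c1 was at 49.0, 47.4, 53.5, 53.9 and 65.5 TPM in control animals 2, 14, 17, 28 and 32, at 52.2, 60.1 and 50.8 TPM in stress-low animals 22, 33 and 34, and at 48.6, 44.2 and 51.1 TPM in stress-high animals 7, 19 and 20. In the DG the stress-high mean (48.0 ± 3.46 TPM, SD, n = 3) differed from the stress-low mean (54.4 ± 5.01 TPM, n = 3) by -6.40 TPM, a gap larger than either SD, with an exact permutation p of 0.2. Stress-exposed animals differed from controls by 0.05 ± 0.05 (log2 fold change ± SE, edgeR, unadjusted p = 0.391) in the BLA and by -0.05 ± 0.07 (unadjusted p = 0.51) in the DG.

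Nr3c1 was carried by a main gene model (ENSRNOG00000014096) and a shorter one (ENSRNOG00000048800), whose TPM values were summed by name. The shorter model took 14.2% to 18.5% of the gene's counts in the BLA and 12.2% to 15.5% in the DG. It nevertheless supplied 19.1 to 29.2 TPM of the BLA sum, beside 24.6 to 35.5 TPM from the main model, because TPM divides by length. The summed level is therefore higher than that of the main model alone, and the order of Nr3c1 among the members depends on it.

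Nr3c2 was low in the BLA and high in the DG. In the BLA it lay between 8.94 and 11.5 TPM in controls (median 9.89), at 11.4, 11.1 and 9.72 TPM in stress-low animals 22, 30 and 34, and at 9.03, 9.75 and 10.6 TPM in stress-high animals 7, 19 and 20. In the DG the controls 2, 14, 17, 28 and 32 had 72.8, 62.5, 76.6, 76.8 and 80.9 TPM, the stress-low animals 22, 33 and 34 had 64.5, 79.7 and 72.6 TPM, and the stress-high animals 7, 19 and 20 had 65.0, 70.7 and 74.3 TPM. The BLA stress-high mean (9.80 ± 0.791 TPM, SD, n = 3) was also below the stress-low mean (10.7 ± 0.887, n = 3) by slightly more than either SD, with an exact permutation p of 0.3. The difference between exposed animals and controls was 0.01 ± 0.06 (log2, unadjusted p = 0.907) in the BLA and -0.04 ± 0.06 (unadjusted p = 0.56) in the DG.

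The balance of both receptors within a library, given as Nr3c2 over the main Nr3c1 model in TPM, was 0.309 to 0.4 in the BLA and 2.2 to 2.69 in the DG, without overlap. Within the BLA the medians were 0.345 in controls, 0.347 in stress-low and 0.322 in stress-high animals. Within the DG they were 2.46, 2.46 and 2.6. With the models of Nr3c1 summed, the ratio was 0.171 to 0.218 in the BLA and 1.23 to 1.6 in the DG, again with no overlap of the regions. The different read settings of the regions bear on these ratios too, and the difference was not tested.

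**Figure D1:**
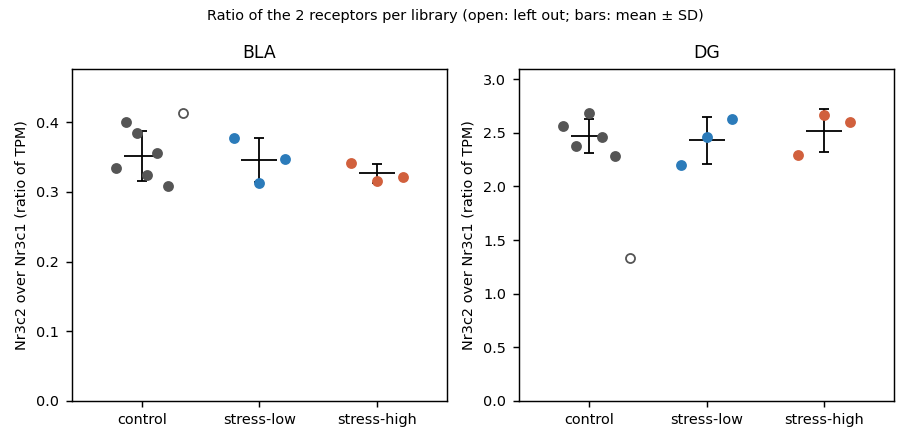
Ratio of Nr3c2 to the main Nr3c1 model in TPM (vertical axis, from 0, a separate scale for each region) in each library by group, with mean and SD as bars and the left-out control as an open circle. The 12 BLA libraries lie between 0.309 and 0.4 and the 11 DG libraries between 2.2 and 2.69, and within each region the groups overlap.

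Fkbp5, the gene of the immunophilin that restrains the glucocorticoid receptor, stood highest in the stress-high animals of the DG. Controls 2, 14, 17, 28 and 32 had 48.1, 39.8, 45.0, 47.3 and 35.3 TPM. Stress-low animals 22, 33 and 34 had 39.6, 43.2 and 41.7 TPM, and stress-high animals 7, 19 and 20 had 61.1, 46.8 and 44.2 TPM. All 3 stress-high values lay above all 3 stress-low values, a pattern that 8.64% of all genes tested in the DG showed in either direction, while both groups overlapped the controls.

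The stress-high mean of DG Fkbp5 exceeded the stress-low mean by 0.30 ± 0.13 (log2, unadjusted p = 0.0371, adjusted p = 0.999) and the control mean by 0.26 ± 0.11 (unadjusted p = 0.0392, adjusted p = 1). The exact permutation test over libraries gave p = 0.1 for stress-low against stress-high, which is the smallest that 3 against 3 libraries allow. Without animal 7 the log2 differences were 0.12 (unadjusted p = 0.309) and 0.09 (unadjusted p = 0.424). With animal number above 20 as a covariate they were 0.18 (unadjusted p = 0.377) and 0.21 (unadjusted p = 0.124). Among exposed animals that covariate coincides with the groups. It was therefore set by the controls alone and cannot separate the order of numbering from behavior. In the BLA, Fkbp5 lay between 16.6 and 20.7 TPM in controls (median 19.4), between 17.4 and 21.3 TPM in stress-low and between 18.7 and 20.4 TPM in stress-high animals, and all groups overlapped. The difference between exposed animals and controls was 0.03 ± 0.06 (unadjusted p = 0.659) in the BLA and 0.11 ± 0.10 (unadjusted p = 0.268) in the DG.

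Fkbp4, whose product favors nuclear transport of the receptor, was the most abundant member and the least variable. Its coefficient of variation was 6.73% over the 12 BLA libraries and 5.66% over the 11 DG libraries, with ranges of 80.7 to 98.0 TPM and 110.0 to 129.0 TPM. Control, stress-low and stress-high means were 89.1 ± 6.14 (SD, n = 6), 93.6 ± 4.94 (n = 3) and 86.2 ± 6.29 TPM (n = 3) in the BLA and 122 ± 6.62 (n = 5), 118 ± 8.53 (n = 3) and 118 ± 7.28 TPM (n = 3) in the DG. The DG difference between exposed animals and controls was -0.02 ± 0.05 (log2, unadjusted p = 0.658), and the BLA difference had an unadjusted p of 0.931.

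Hsd11b1 encodes the enzyme that regenerates active corticosterone inside cells. It lay between 31.4 and 47.8 TPM in the BLA and between 35.3 and 53.6 TPM in the DG, and both extremes in the BLA fell in the stress-low group (animals 34 and 22). Exposed animals differed from controls by -0.10 ± 0.09 (log2, unadjusted p = 0.275) in the BLA and by 0.01 ± 0.11 (unadjusted p = 0.905) in the DG. The groups overlapped in all 8 comparisons.

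Tsc22d3, which encodes the anti-inflammatory leucine zipper protein GILZ, was the member of the BLA with the lowest unadjusted p. Controls lay between 29.5 and 35.6 TPM (median 32.8), and the lowest of them was animal 35, whose BLA labels conflict. Stress-low animals 22, 30 and 34 had 34.3, 42.9 and 34.9 TPM, and stress-high animals 7, 19 and 20 had 45.6, 34.2 and 41.0 TPM. Of the 6 exposed animals, 3 lay above the highest control and 3 within the control range.

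In the BLA, Tsc22d3 was higher in stress-high animals than in controls by 0.31 ± 0.10 (log2, 1.24-fold, unadjusted p = 0.00925, adjusted p = 1) and in all exposed animals by 0.23 ± 0.09 (1.17-fold, unadjusted p = 0.0177, adjusted p = 1). The exact permutation test of TPM gave p = 0.0476 and p = 0.0411. Neither comparison passed the adjusted threshold. Without animal 7 the values were 0.14 (unadjusted p = 0.171) and 0.14 (unadjusted p = 0.0652). Leaving out each library in turn, that of animal 35 among them, gave 0.14 to 0.4 and 0.14 to 0.28. Without animals 30 and 35, the libraries high in striatal markers, the exposed animals differed from controls by 0.17 (unadjusted p = 0.0923). Summed blood markers, led by Hba1 and Hbb, were 289 to 516 TPM in controls, 418 to 479 in stress-low and 442 to 550 in stress-high animals, with the highest value in animal 7; their part in the difference was not tested. In the DG, Tsc22d3 lay between 33.5 and 42.0 TPM in all 11 libraries and exposed animals differed from controls by 0.06 ± 0.07 (unadjusted p = 0.401).

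Sgk1 encodes a kinase that acts on ion channels and is a classical early target of both receptors. In the DG the controls 2, 14, 17, 28 and 32 had 37.1, 47.2, 44.0, 33.0 and 37.2 TPM, the stress-low animals 22, 33 and 34 had 56.5, 41.0 and 47.8 TPM, and the stress-high animals 7, 19 and 20 had 37.8, 48.7 and 51.4 TPM. Of the 6 exposed animals, 4 lay above the highest control. The difference was 0.30 ± 0.14 (log2, unadjusted p = 0.0454, adjusted p = 0.709) for stress-low animals and 0.26 ± 0.11 (unadjusted p = 0.0362, adjusted p = 0.925) for all exposed animals, and the exact permutation p of the latter was 0.0887. Without animal 22, the stress-low difference was 0.16 (unadjusted p = 0.277). In the BLA, Sgk1 ran from 15.1 to 25 TPM and the groups had nearly equal means, 18.1 ± 3.51 (SD, n = 6), 17.9 ± 3.2 (n = 3) and 18.3 ± 2.97 TPM (n = 3).

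Ddit4, the gene of the mTORC1 inhibitor REDD1, was lower in the DG of exposed animals than in that of most controls. Controls 2, 14, 17, 28 and 32 had 79.4, 60.8, 60.8, 72.0 and 73.8 TPM. Stress-low animals 22, 33 and 34 had 56.1, 56.9 and 58.2 TPM, all below the lowest control, and stress-high animals 7, 19 and 20 had 63.4, 56.1 and 58.8 TPM, of which 1 lay within the control range. Groups that do not overlap between control and stress-low were found for 3.7% of all genes tested in the DG.

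The DG difference of Ddit4 was -0.27 ± 0.08 (log2, unadjusted p = 0.00722, adjusted p = 0.709) for stress-low animals, -0.20 ± 0.08 (unadjusted p = 0.0307, adjusted p = 1) for stress-high animals and -0.23 ± 0.07 (unadjusted p = 0.00452, adjusted p = 0.925) for all exposed animals. The exact permutation p was 0.0357, 0.107 and 0.013. The left-out control, animal 35, had 51.9 TPM, below every exposed animal, and with it included the control and stress-low groups overlapped, the exact permutation p was 0.226 and the edgeR difference was -0.24 (unadjusted p = 0.0193) for stress-low and -0.21 (unadjusted p = 0.0133) for all exposed animals. In the BLA, Ddit4 lay between 26.3 and 35.4 TPM, and exposed animals differed from controls by -0.10 ± 0.07 (unadjusted p = 0.162).

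Zbtb16, which encodes a zinc finger transcription factor, was the most variable member in the DG. Controls 2, 14, 17, 28 and 32 had 22.6, 22.4, 40.7, 24.0 and 21.8 TPM, stress-low animals 22, 33 and 34 had 18.5, 42.1 and 31.7 TPM, and stress-high animals 7, 19 and 20 had 46.4, 19.2 and 28.4 TPM. Its coefficient of variation was 34.4% in the DG and 9.79% in the BLA. The highest libraries, animals 7, 33 and 17, came from all 3 groups. Summed astrocyte markers were highest in animals 17 and 33, at 1151 and 908 TPM, and 798 TPM in animal 7 within the 722 to 896 TPM of the other 8; their part in the spread was not tested. Exposed animals differed from controls by 0.26 ± 0.24 (log2, unadjusted p = 0.293) in the DG and by 0.07 ± 0.09 (unadjusted p = 0.47) in the BLA, where the gene lay between 8.29 and 11 TPM.

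Errfi1 encodes a feedback inhibitor of the epidermal growth factor receptor. It lay between 10.5 and 14.5 TPM in the BLA and between 15.6 and 24.0 TPM in the DG, with the highest values of both regions in controls. Exposed animals differed from controls by -0.10 ± 0.08 (log2, unadjusted p = 0.211) in the BLA and by -0.11 ± 0.10 (unadjusted p = 0.309) in the DG. The groups overlapped in all comparisons of both regions.

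**Figure D2:**
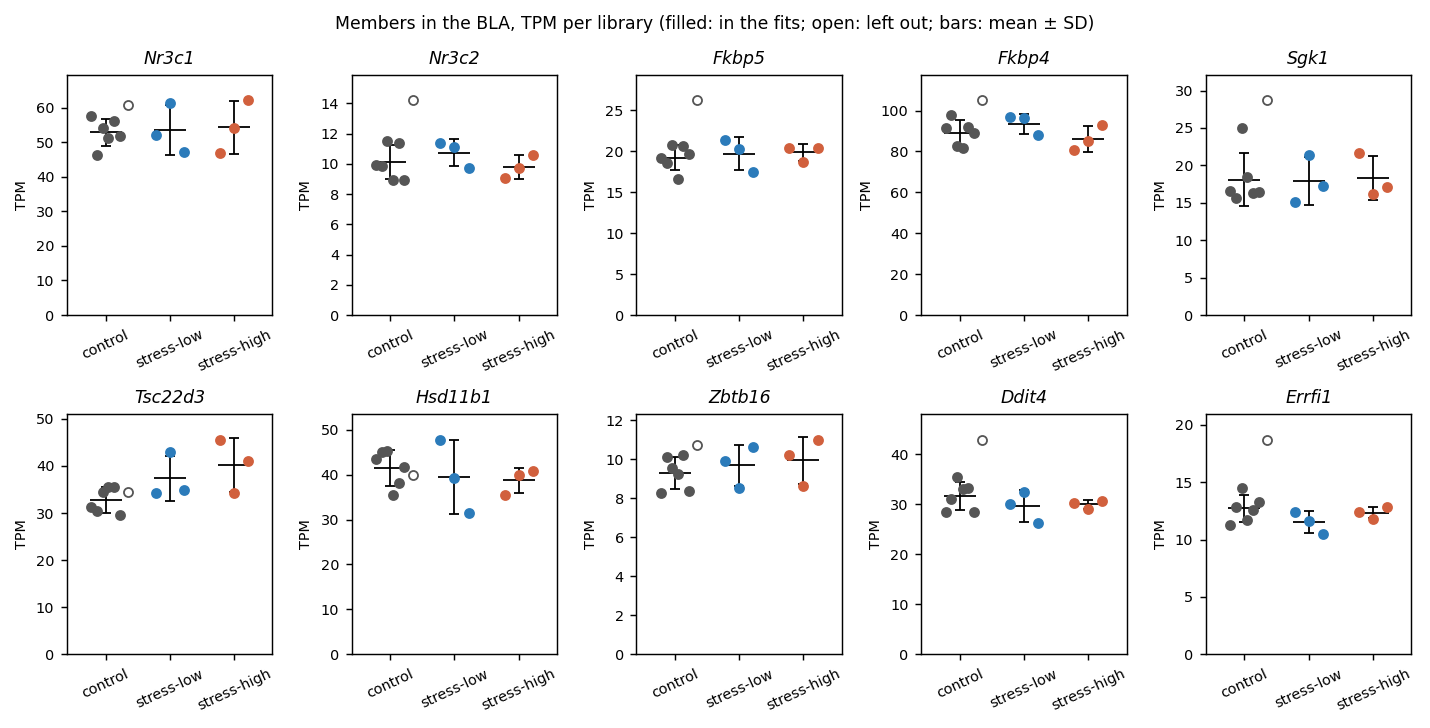
TPM of each member (vertical axes, from 0) in each BLA library by group, with mean and SD as bars and the left-out control of animal 2 as an open circle. Tsc22d3 is the panel in which 3 of the 6 exposed animals lie above every control of the fits; the open circle lies above every other control in 8 of the 10 panels.

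Over all members and comparisons, none passed an adjusted p of 0.05 in edgeR in any of the 8 comparisons, and none passed in DESeq2 or limma. The share of all genes that passed in edgeR was also 0% in each of the 8, while DESeq2 and limma called a few genes in some comparisons, as given below. At an unadjusted p under 0.05 the counts of members were small and were read against the share of all genes. In the BLA, 0 of 10 members passed between stress-low and stress-high (1.91% of all genes, 286 genes), 0 between control and stress-low (2.69%, 402 genes), 1 between control and stress-high (2.53%, 379 genes) and 1 between control and all exposed animals (3.04%, 454 genes), in both cases Tsc22d3. In the DG, 1 member passed between stress-low and stress-high (Fkbp5; 3.16%, 438 genes), 2 between control and stress-low (Sgk1 and Ddit4; 7.01%, 971 genes), 2 between control and stress-high (Fkbp5 and Ddit4; 2.23%, 309 genes) and 2 between control and all exposed animals (Sgk1 and Ddit4; 4.45%, 616 genes).

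Groups that do not overlap in TPM were as rare among the members. In the BLA no member was separated between stress-low and stress-high (5.78% of all genes), control and stress-low (1.34%), control and stress-high (0.91%) or control and exposed animals (0.0736%). In the DG, Fkbp5 was separated between the stress groups and Ddit4 between control and stress-low, as given above, and no member between control and stress-high (1.47%) or control and all exposed animals (0.238%). The median absolute log2 difference of the members was 0.085 between the stress groups of the BLA and 0.08 in the DG, beside 0.0707 and 0.0807 for all genes tested. Between the stress groups the members' log2 differences ran from -0.09 to 0.16 in the BLA and from -0.12 to 0.3 in the DG. The SE of these differences ran from 0.08 (Fkbp4) to 0.17 (Sgk1) in the BLA and from 0.07 (Fkbp4) to 0.32 (Zbtb16) in the DG.

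**Figure D3:**
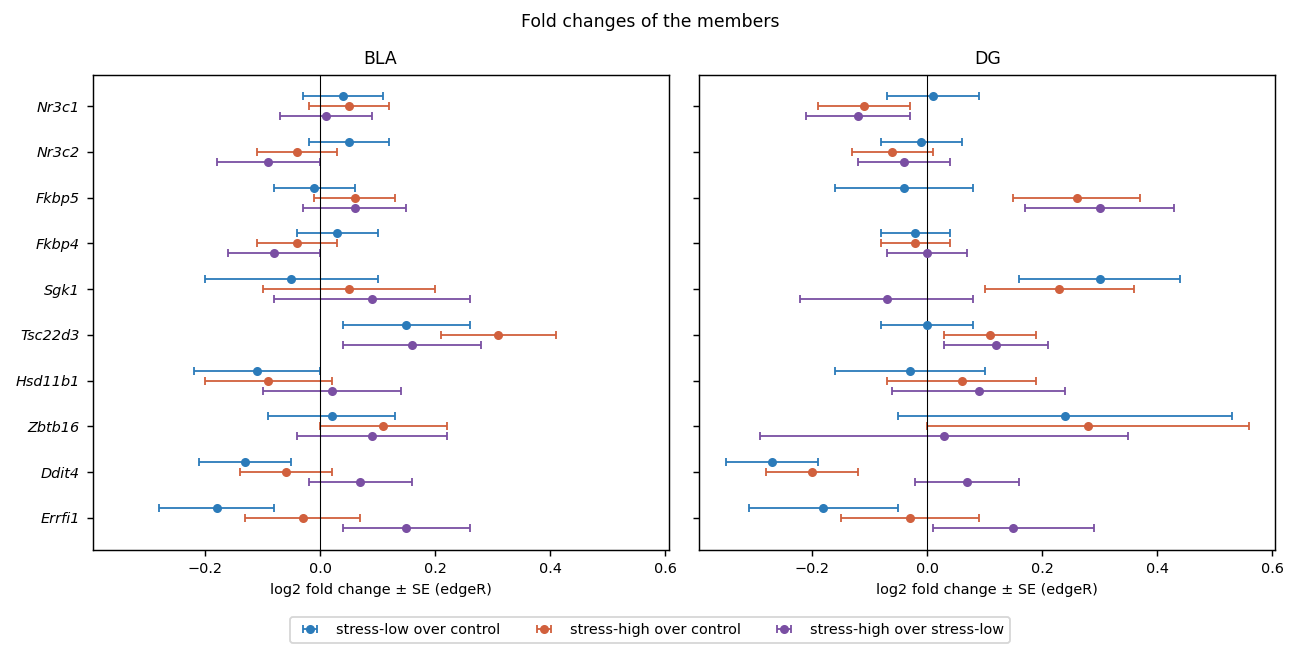
Log2 fold change of each member (horizontal axis, edgeR, bars 1 SE) for stress-low over control, stress-high over control and stress-high over stress-low, in the BLA (left) and the DG (right). The points farthest from 0 are Tsc22d3 in the BLA (0.31 for stress-high over control) and Fkbp5, Sgk1, Zbtb16 and Ddit4 in the DG (0.30, 0.30, 0.28 and -0.27). Zbtb16 in the DG has the widest bars, and the SE of its 0.28 (stress-high over control) is also 0.28.

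Whether a group difference differed between the regions was tested in 1 fit of both. This fit had no term for animal, although 9 animals gave a library to each region, so its SE and p ignore that pairing. No member passed. The unadjusted p lay between 0.14 and 0.923 for stress-low against stress-high, between 0.133 and 0.926 for control against stress-low, between 0.162 and 0.987 for control against stress-high and between 0.139 and 0.963 for control against all exposed animals, with adjusted p of 1 throughout. For Sgk1 the DG difference between control and stress-low exceeded the BLA difference by 0.34 ± 0.22 (log2). For Fkbp5 the DG difference between the stress groups exceeded the BLA difference by 0.25 ± 0.16.

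Libraries of both regions from the same animal were then compared, to see which members kept an animal's rank across regions. Over the 9 animals with both libraries in the fits, Tsc22d3 gave Pearson r = 0.84 (permutation p = 0.00373, adjusted over 10 members p = 0.0373) and Spearman rho = 0.73 (permutation p = 0.0311, adjusted p = 0.104). Only 1.53% of 13654 genes tested in both regions had a higher r. Among these 9 animals, 7 and 20 had the highest and next highest values in both regions, at 45.6 and 41.0 TPM in the BLA and 42.0 and 40.1 TPM in the DG. Without the 2 animals farthest from the BLA median r was 0.47, so that the relation rests on those animals. Leaving out 1 animal at a time gave r between 0.71 and 0.91, and the adjusted p was above 0.05 in 7 of the 9 cases. With group means removed r was 0.81, and on log2 CPM (counts scaled to library size) it was 0.71 with adjusted p = 0.0935.

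Ddit4 followed with r = 0.73 (permutation p = 0.0247, adjusted p = 0.124; rho = 0.73), 0.72 without the 2 farthest animals and 0.59 with group means removed. The other members gave r = 0.62 for Fkbp4, 0.61 for Hsd11b1, 0.50 for Zbtb16, 0.12 for Nr3c2, 0.05 for Nr3c1, 0.02 for Errfi1, -0.14 for Fkbp5 and -0.59 for Sgk1, with adjusted permutation p between 0.18 and 0.956. The median over all genes was 0.17. Sgk1 lay at the other end of the distribution, with a higher r in 98.2% of all genes. Its r was -0.16 without the 2 farthest animals, so that its size depends on those animals, while leaving out 1 animal at a time gave r between -0.71 and -0.48. With group means removed r was -0.82 (permutation p = 0.00661, adjusted p = 0.0413). That permutation exchanged the centered values freely, as if no group means had been estimated. The p after removal of group means can therefore be too small. The rho of Sgk1 was -0.48 (permutation p = 0.194).

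**Figure D4:**
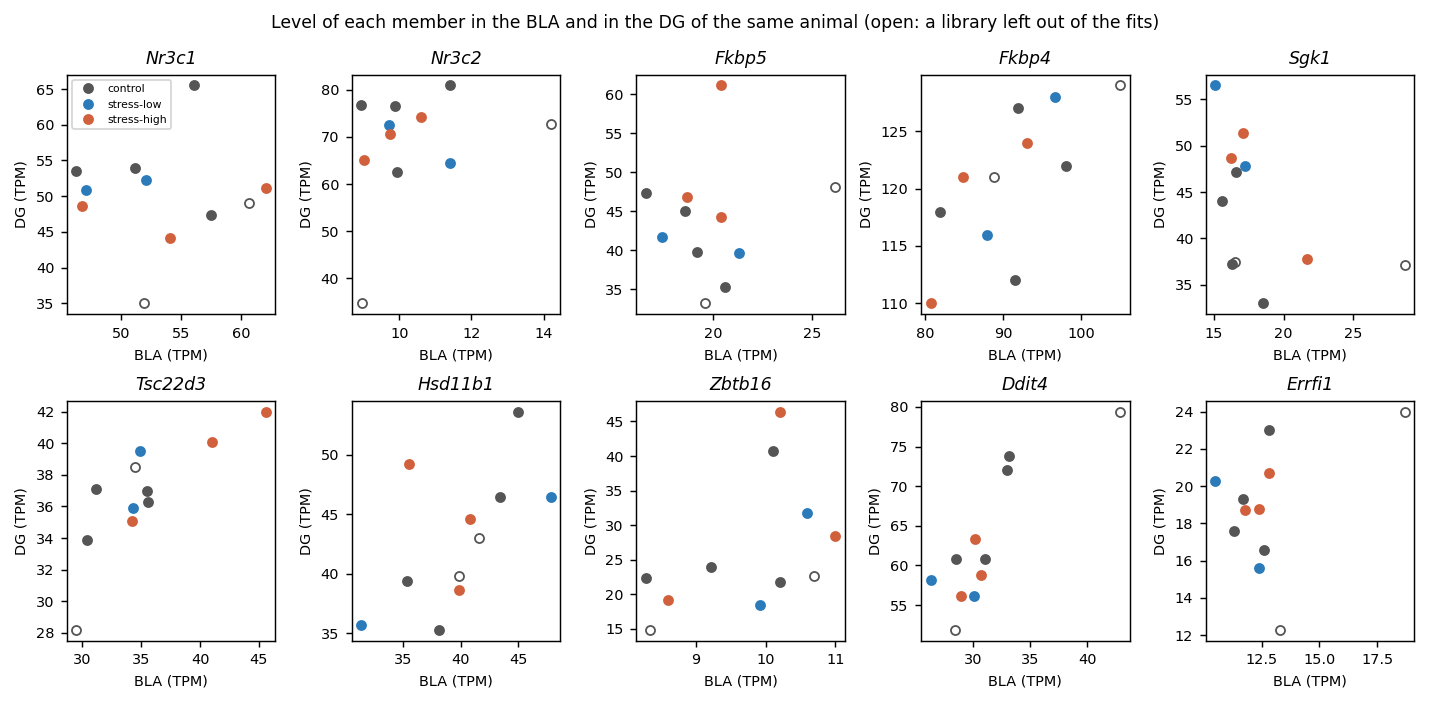
TPM of each member in the BLA (horizontal axes) and in the DG (vertical axes) of the same animal, colored by group, with open circles for animals that had a library left out of a fit (axes do not start at 0). For Tsc22d3 (r = 0.84 over the 9 filled points) the stress-high animals 7 and 20 form the upper right end, and for Sgk1 (r = -0.59) the points fall from left to right.

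To see whether the glucocorticoid-induced genes varied together between libraries, the 15 pairs of Fkbp5, Sgk1, Tsc22d3, Zbtb16, Ddit4 and Errfi1 were compared in each region. In the BLA, 13 of 15 pairs had a positive Pearson r over 12 libraries, from -0.13 to 0.58 with a median of 0.27. In the DG, 9 of 15 were positive over 11 libraries, from -0.79 to 0.50 with a median of 0.12. The pairs share genes, and the share of positive r among pairs of other genes was not computed. None of the 30 relations passed an adjusted permutation p of 0.05, and 1 pair in each region had an unadjusted p under it. In the BLA this was Ddit4 with Errfi1 (r = 0.58, permutation p = 0.0464, adjusted p = 0.455; rho = 0.38, permutation p = 0.218), and without the 2 farthest libraries r was -0.11. In the DG it was Sgk1 with Ddit4 (r = -0.79, permutation p = 0.00252, adjusted p = 0.0756; rho = -0.85, permutation p = 0.00193, adjusted p = 0.0579), where libraries with more Sgk1 had less Ddit4. There r was -0.75 without the 2 farthest libraries, -0.68 with group means removed and -0.58 with the left-out library. Summed markers of CA pyramidal cells were 139 to 166 TPM in the 6 libraries with the most Sgk1 and 93.4 to 154 TPM in the other 5, and their part in the relation was not tested. Most of this sum came from Bok, with a DG mean of 99.8 TPM. Wfs1, Ociad2 and Nov averaged 19.3, 6.2 and 5.06 TPM in the DG and 157, 77.1 and 183 TPM in the BLA. The sum is thus a weak guide to CA cells.

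Genes of the same pathway outside the members were read from lists chosen with earlier results of these data known. Of 24 other glucocorticoid-induced genes, 23 were tested in each region and none passed the adjusted threshold. The metallothionein genes, which bind zinc and respond to glucocorticoids, differed most between the stress groups of the DG. Mt1a was at 41.0, 33.7 and 38.6 TPM in the stress-low and at 65.6, 70.4 and 51.8 TPM in the stress-high animals, with 45.5 to 59.7 TPM in the controls of the fit, so that the controls lay between both groups with an overlap with the stress-high group alone. Of all genes tested in the DG, 8.64% had no overlap between the stress groups and 3.7% none between control and stress-low. The stress-high mean of Mt1a exceeded the stress-low mean by 0.75 ± 0.18 (log2, unadjusted p = 0.00105, adjusted p = 0.999). Mt2A was at 137, 112 and 94.7 TPM in the stress-low and 183, 178 and 134 TPM in the stress-high animals, with overlapping groups and a difference of 0.54 ± 0.19 (unadjusted p = 0.0133, adjusted p = 0.999).

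In the same DG comparison, 3 of the 23 genes were higher and 1 lower at an unadjusted p under 0.05, beside 3.16% of all genes in either direction, and the median log2 difference was 0.10 beside 0.000 for all genes. Between control and stress-low it was -0.14 beside -0.003, with 3 genes lower and 0 higher, beside 7.01% of all genes in either direction. Cebpb, a transcription factor gene, was lower in the DG of exposed animals (-0.25 ± 0.08, unadjusted p = 0.00922, adjusted p = 0.925), at 37.7 to 45.1 TPM against 42.8 to 56.1 TPM in controls. In the BLA, Cdkn1a, the gene of a cell cycle inhibitor, differed by 0.38 ± 0.13 between exposed animals and controls (unadjusted p = 0.0095, adjusted p = 1), at 3.01 to 4.27 TPM against 2.05 to 3.21 TPM. Txnip, the gene of a thioredoxin inhibitor, differed by 0.24 ± 0.08 (unadjusted p = 0.00976, adjusted p = 1), at 15.3 to 21.9 TPM against 11.7 to 16.3 TPM. Map3k6, with low values of 0.06 to 0.35 TPM, differed by 1.06 ± 0.45 between the stress groups of the BLA (unadjusted p = 0.0341, adjusted p = 1).

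Of the 12 receptor chaperone genes, none had an unadjusted p under 0.05 in any of the 8 comparisons, and their median log2 differences lay within -0.03 and 0.01. The lowest unadjusted p were those of Ppp5c, Hsp90aa1 and Hspa8 in the BLA (0.108, 0.148 and 0.22) and of Hsp90aa1, Ptges3 and Dnajb1 in the DG (0.111, 0.143 and 0.19). Of 7 genes of steroid metabolism and transport, 5 were tested in the BLA and 4 in the DG and none had an unadjusted p under 0.05; the lowest were those of Akr1c14 (0.0716), H6pd (0.364) and Srd5a1 (0.376) in the BLA and of Srd5a1 (0.257), H6pd (0.285) and Abcb1a (0.519) in the DG. Of 10 receptor coregulators, Ncoa3, a steroid receptor coactivator gene, was higher in stress-high than in stress-low animals of the BLA by 0.36 ± 0.09 (unadjusted p = 0.00188, adjusted p = 1). It was at 11.4, 10.7 and 12.6 TPM against 8.28, 10.4 and 9.19 TPM with no overlap between the groups. Of all genes tested, 5.78% had no overlap in this comparison and 1.91% had an unadjusted p under 0.05. Crebbp came next among the coregulators of the BLA (unadjusted p = 0.0987). In the DG, Smarca4, a chromatin remodeler gene, was lower in stress-low animals than in controls by -0.14 ± 0.05 (unadjusted p = 0.0132, adjusted p = 0.709), and Ncoa3 and Ep300 had p of 0.113 and 0.19.

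The genes whose levels followed a receptor or Fkbp5 most closely over the libraries were listed by Pearson r of log2 CPM, as a description without a test. For Nr3c1 these were Hhip (0.95), Spg11 (0.91) and Map4k4 (0.91) over 12 BLA libraries and Sema6d (0.97), Dusp16 (0.93) and Epha7 (0.91) over 11 DG libraries. For Nr3c2 they were RGD1311080 (0.86), the unnamed ENSRNOG00000049939 (0.85) and Psd2 (0.83) in the BLA and Il17re (0.89), Paox (0.89) and Tmem8b (0.88) in the DG. For Fkbp5 they were Eda (0.86), Commd8 (0.83) and Tsfm (0.81) in the BLA and Epha8 (0.91), Gpt (0.90) and Leprel2 (0.89) in the DG. No member was among the 3 nearest of any of them. The members nearest to Fkbp5 were Errfi1 in the BLA (r = 0.53, rank 305 of 14952 genes) and Tsc22d3 in the DG (r = 0.47, rank 745 of 13849). Nr3c1 and Nr3c2 followed each other in the DG (r = 0.59, rank 583 of the genes nearest to Nr3c1) and not in the BLA (r = 0.01), a difference that was not tested.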

How the data were processed

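The data were 25 bulk poly-A libraries of the left-hemisphere BLA and DG, 1 animal each, grouped by the sample labels. Per the labels and methods, the authors used STAR 2.6.0a, the Rn5 genome and an Ensembl annotation, and RSEM 1.3.1. They deposited an expected count (an estimated count, not always whole) and a TPM value for each gene identifier and library. TPM depends on all other genes of a library. Identifiers that share a gene name were summed, which concerns Nr3c1 among the members.

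Group differences were tested on the rounded expected counts in edgeR 4.0.16 (R 4.3.3) by quasi-likelihood F-tests over 3 group means per region, with TMM factors, genes kept by filterByExpr (minimum count 10) and Benjamini-Hochberg adjustment over all kept genes (threshold 0.05). SE was the log2 fold change over the root of F. The region difference was an interaction over 6 region and group means, without a term for animal. TPM means were compared by exact two-sided permutation of libraries, whose smallest p was 0.1 for 3 against 3, 0.0119 for 6 against 3 and 0.0179 for 5 against 3. Correlations of log2(TPM + 1) had two-sided p over all orders of 9 animals or 100000 random orders. The fits were tested on simulated data with known changes larger than any member difference given here. That check does not cover differences of the members' size.

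The library left out of each region was the control farthest from the median on the first principal component of log2(TPM + 1), over genes averaging at least 1 TPM. The study does not number its excluded library. Comparisons with controls share those controls. Alternatives were DESeq2 1.42.0, limma 3.58.1 on log2 TPM, other size factors, filters, sample sets and blocks, single identifiers and leaving out each library. The members and gene lists were chosen with earlier results of these data known. The text names all members, up to 3 genes per list and region by smallest unadjusted p, and the 3 genes nearest to Fkbp5, Nr3c1 and Nr3c2; 1 list gene that this rule names is not reported here. Promoters came from RefSeq (GRCr8).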

Additional observations from a re-analysis of the deposited data

Results flagged for a closer look

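Of 20 control groups tested for a single far value (10 members in each region), 2 were flagged, where chance flags about 1 in 20. In the BLA, control animal 27 had 25 TPM of Sgk1, while the next control had 18.5 and the lowest 15.6 TPM. Summed microglia markers were also highest in this library, at 178 TPM against 127 to 152 TPM in the other 11, and their part was not tested. In the DG, control animal 17 had 40.7 TPM of Zbtb16, while the other controls lay between 21.8 and 24 TPM. Summed astrocyte markers in that library were 1151 TPM against 722 to 908 TPM in the other 10, and their part was not tested.

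The BLA library of animal 2, a control outside the fits, lay above each of the 6 other controls in 8 of 10 members, with 60.7 TPM of Nr3c1, 14.2 of Nr3c2, 26.2 of Fkbp5, 105 of Fkbp4, 28.7 of Sgk1, 10.7 of Zbtb16, 42.9 of Ddit4 and 18.7 of Errfi1. Of all 14953 genes tested, 46.9% lay above every other control in this library and 6.51% below. Summed striatal and central amygdala markers were 399 TPM and meningeal markers 49.4 TPM in it, against 76.8 to 236 and 8.84 to 16.5 TPM in the 12 libraries of the fits. Their part in the levels was not tested.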

How the results depend on the processing

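No member passed an adjusted p of 0.05 in any of 161 recounts under other settings. Of 26 member differences followed under other settings, 14 of 271 values had the opposite sign; the cause was not tested. Counts of all genes were less stable. DESeq2 called 2, 2, 3 and 1 genes at an adjusted p under 0.05 in the DG (stress-low against stress-high, then control against stress-low, stress-high and all exposed). In the BLA, limma called 2, 2 and 1 genes on log2(TPM + 0.1), 1 gene on log2(TPM + 1) and 1, 2 and 1 genes without a filter. At an unadjusted p under 0.05, limma without a filter gave 553 and 619 genes for the BLA (stress groups, control against stress-low) and 464 for the DG (control against stress-high). edgeR gave 458 genes without the low-count filter (BLA stress groups), 242 with all libraries (DG stress groups), and, with animal number above 20 as a covariate, 510 and 599 for the BLA, 798 and 516 for the DG (stress groups, control against stress-high). An alternative chosen after seeing the data, without the BLA libraries of animals 30 and 35, gave 618 and 579 genes for the same BLA comparisons, with 1 gene at an adjusted p for the latter. With animal as a block, 1 gene passed for the region difference of control against stress-high.

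Differences between exposed animals and controls that changed sign were small. With all libraries they were -0.02 for Fkbp5 and -0.04 for Nr3c2 in the BLA and -0.03 for Hsd11b1 and 0.07 for Nr3c2 in the DG. In limma, Fkbp4 and Sgk1 in the BLA were at 0.01. Without animals 30 and 35, Fkbp4 was at 0.01 and Nr3c2 at -0.01. With animal number above 20 as a covariate, Sgk1 in the BLA was at 0.04 and Srd5a1 (stress groups) at -0.0033. One BLA member had separated stress groups in TMM CPM, and 0 DG members separated control from stress-low with all libraries. The share of all genes with separated groups is not given for TMM CPM or for all libraries. These counts of separated members therefore cannot be read against such a share. Between the regions, 2 members passed with all libraries and 0 on log2 CPM, where r was -0.04 for Nr3c2 and 0.35 for Fkbp5. With group means removed 2 passed, by the permutation p that can be too small, and r was -0.12 for Errfi1. For Fkbp5 r was 0.06 with all libraries. All libraries include those of animals 2 (BLA) and 35 (DG) that stood apart, and with them 3 target pairs passed.

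When single libraries were left out in turn, there were 215 to 575 genes at an unadjusted p under 0.05 for the BLA stress groups, and in the DG 340 to 685 for the stress groups, 580 to 1553, 273 to 542 and 409 to 1265 for control against stress-low, stress-high and all exposed. Separated members numbered 0 to 2 (BLA stress groups, and control against stress-high), 1 to 3, 1 to 2, 0 to 2 and 0 to 1 (DG, in the order above), beside 9.09% to 26.9% and 1.34% to 5.91% of all genes in these BLA comparisons and 15.3% to 22.7%, 4.78% to 11.8%, 2.43% to 6.22% and 0.404% to 2.18% in those of the DG. Log2 differences of exposed animals ran from -0.04 to 0.03 for Fkbp4, -0.02 to 0.05 for Fkbp5, -0.02 to 0.03 for Nr3c2 and -0.11 to 0.09 for Sgk1 in the BLA, and from -0.06 to 0.09 for Hsd11b1, -0.08 to 0.02 for Nr3c1 and -0.08 to 0.002 for Nr3c2 in the DG. Srd5a1 ran from -0.001 to 0.17 and Abcb1a from -0.05 to 0.19. Members passing between the regions, and target pairs passing, numbered 0 to 1. Between the regions, r ran from -0.28 to 0.17 for Nr3c1, -0.25 to 0.44 for Nr3c2, -0.61 to 0.04 for Fkbp5 and -0.31 to 0.31 for Errfi1.

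Replicate numbers in the titles did not pair the libraries (median correlation of deviations 0.0134 in the BLA and 0.013 in the DG for equal numbers). With the replicate number as a block no call at an adjusted p was gained among the members, Nr3c2 in the BLA was at -0.02, and Tsc22d3 in the BLA of exposed animals was at 0.20 (edgeR, unadjusted p = 0.0661). With 3 animals per stress group the median SE of a log2 difference between them was 0.124 (BLA) and 0.116 (DG).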

Other observations

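The DG library of animal 35, also outside the fits, went the other way. The DG control that the paper excluded had low RNA quality, and whether it was this library is not stated. The library of animal 35 lay below each of the 5 other controls in 7 of 10 members, with 35.0 TPM of Nr3c1, 34.7 of Nr3c2, 33.2 of Fkbp5, 28.2 of Tsc22d3, 14.9 of Zbtb16, 51.9 of Ddit4 and 12.3 of Errfi1, and above none of them in any member. Of all 13850 genes tested, 52.9% lay below every other control in this library and 9.79% above. Its ratio of Nr3c2 to the main Nr3c1 model was 1.33, against 2.2 to 2.69 in the 11 libraries of the fits. Summed blood markers were 738 TPM in it, against 430 to 607 TPM in the others.

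Fkbp5 relative to Fkbp4, immunophilins with opposite effects on the receptor, was 0.19 to 0.252 in TPM over the 12 BLA libraries and 0.278 to 0.556 over the 11 DG libraries, without overlap. The DG stress-high animals had a median of 0.388, the stress-low animals 0.36 and the controls 0.37, and the top value of 0.556 was that of animal 7.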
